A study of Mus musculus with 6 samples.

Results

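The microRNAs (miRNAs) miR-208a, miR-208b and miR-499 lie in introns of myosin heavy chain genes. They were described here across 6 small RNA libraries of mouse heart cardiomyocytes. Members were the mature rows of the deposited count table whose name, without the species prefix, the arm suffix and any copy number, was one of these 3 names. The rule found 6 mature arms, a 5p and a 3p arm of each hairpin, among 1952 mature miRNAs left after rows holding the same reads were merged. All mice were C57BL/6. The groups were adult lncSync-null mice (labelled LncSync-/-, called knockout) with 2 libraries, adult wild-type mice with 2 libraries, knockout embryos at e13.5, in days after conception, with 1 library, and wild-type embryos at e13.5 with 1 library. The study compared mice with and without the long non-coding RNA lncSync at both stages. The sources used here do not give the deleted bases, the age of the adults, how cardiomyocytes were isolated, whether hearts were pooled, or whether replicates are separate animals. P-values therefore reflect only how far these libraries vary, and that variation may be technical.

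A miRNA hairpin is cut from its transcript and yields a 5p and a 3p strand, and usually 1 of them is kept by the Argonaute protein that represses target mRNAs through the seed, bases 2 to 8 of the strand. In the mouse, miR-208a is made from Myh6, the fast alpha myosin heavy chain of the adult ventricle. Its relative miR-208b is made from Myh7, the slow beta chain that mouse ventricles use before birth, and miR-499 from Myh7b, a related myosin gene. Mouse work has tied miR-208a to cardiac hypertrophy and to the level of the beta chain, and miR-208b and miR-499 to slow muscle fibre identity.

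The mature sequences are shown because the family is defined by them, and because reads of the paralogous arms can be told apart only at the bases that differ. They were taken from RefSeq (GRCm38.p6), where all 6 arms were matched by name, and the capitals mark the seed.
miR-208a-3p: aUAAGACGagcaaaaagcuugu
miR-208b-3p: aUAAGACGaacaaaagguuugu
miR-499-5p: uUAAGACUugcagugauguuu
miR-208a-5p: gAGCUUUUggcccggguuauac
miR-208b-5p: aAGCUUUUugcucgcguuaugu
miR-499-3p: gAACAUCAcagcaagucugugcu

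The 3p arms of miR-208a and miR-208b had the same seed and the same base at 19 of 22 positions. Counted from 1 at the 5′ end, with the miR-208a-3p base first, they differed at G10A, A16G and C18U. The 5p arm of miR-499 matched miR-208a-3p at 12 of 21 positions. In the seed those arms differed by G8U alone, so all 3 arms shared bases 2 to 7. No other mature miRNA in the RefSeq table had those 6 bases at that place. The 5p arms of miR-208a and miR-208b had a seed in common with each other and with miR-6415, and matched at 16 of 22 positions.

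The hairpins are shown with the mature arms in capitals, so that the position of the 2 strands of each precursor can be read beside the arm counts.
Mir208a: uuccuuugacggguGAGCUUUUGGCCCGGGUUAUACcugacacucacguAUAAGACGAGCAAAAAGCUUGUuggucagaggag
Mir208b: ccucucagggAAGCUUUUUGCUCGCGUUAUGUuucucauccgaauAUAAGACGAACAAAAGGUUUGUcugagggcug
Mir499: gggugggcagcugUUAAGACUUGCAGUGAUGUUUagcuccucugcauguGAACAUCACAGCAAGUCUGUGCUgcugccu

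In GENCODE vM21 (GRCm38, mm10), Mir208a lay at chr14:54949060-54949142 on the minus strand, in intron 29 of the 39-exon gene Myh6. Mir208b lay at chr14:54975700-54975776 on the same strand, in intron 31 of the 41-exon gene Myh7, and 26557 bp separated both hairpins. Mir499 lay at chr2:155622880-155622958 on the plus strand, in intron 19 of the 42-exon gene Myh7b. All 3 introns were short, at 542, 461 and 481 bp for Myh6, Myh7 and Myh7b, and each hairpin lay in the sense orientation of its host. Host mRNAs and lncSync are outside what a miRNA table measures, so neither the host genes nor the genotype labels could be checked.

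Mature counts per library were 14347091 and 17608586 in adult knockout, 17933518 and 16794840 in adult wild-type, 2671957 in e13.5 knockout and 8944553 in e13.5 wild-type libraries. Levels are given as CPM, the count scaled to a fixed total of mature counts per library. A count of 0 allows up to 3 counts, which is 1.123 CPM in the shallow e13.5 knockout library and 0.1673 to 0.3354 CPM elsewhere. These limits and all intervals describe counting error alone. The cardiomyocyte label was checked with miR-1a, miR-133a and miR-133b, the miRNAs that define muscle. Summed over 6 of 7 arms with a count, they reached 276435 to 387129 CPM in the 4 adult libraries, and 96416 and 142089 CPM in the e13.5 knockout and wild-type libraries. The arms did not share that gap. The stages overlapped for miR-1a-3p, at 81490 to 256336 CPM in adults, against 94848 and 139959 CPM at e13.5 in the same order. For miR-133a-3p the values were 121551 to 182883 CPM in adults, against 1479 and 1925 CPM. Markers of other cells differed between stages as well. The smooth muscle list (4 of 4 arms detected) summed to 71127 to 115721 CPM in adults, against 211633 and 351025 CPM in the e13.5 knockout and wild-type libraries. Nearly all of that sum was miR-143-3p, at 65759 to 110487 CPM in adults, against 210707 and 349750 CPM at e13.5 in that order. The arm miR-145a-5p of the same list went the other way. On the TMM scale described below it had 4962 to 6103 CPM in adults, against 345.5 and 906.3 CPM at e13.5. The epithelial list (8 of 8 arms) summed to 23.7 to 50.5 CPM in adults, against 1986 and 1377 CPM in the e13.5 knockout and wild-type libraries. Leukocyte miRNAs went the other way (8 of 8 arms), at 997.6 to 2136 CPM in adults, against 128.4 and 66.4 CPM at e13.5 in the same order. Endothelial miRNAs (2 of 2 arms) ran from 16487 to 31068 CPM in adults, against 16342 and 18992 CPM, and mesenchymal ones (5 of 5 arms) from 1932 to 3708 CPM, against 3226 and 4733 CPM. Neuronal miRNAs (4 of 4 arms) ran from 78.7 to 155.4 CPM in adults, against 305.8 and 238.2 CPM, and the liver miRNA miR-122 (2 of 2 arms) from 0.417 to 3.83 CPM, against 191.6 and 45.2 CPM. By their sums, the endothelial and mesenchymal lists overlapped between the stages, among the lists named so far. The defining marker of each list, its arm of highest mean CPM, was at 0 in no library. The part of cell makeup in the stage differences below was not tested, and in bulk libraries fewer cardiomyocytes and less miRNA per cardiomyocyte cannot be told apart.

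Both stages held all 3 hairpins, with miR-499 the most abundant. The family took 0.528% and 0.814% of mature counts in the adult knockout libraries and 0.581% and 0.580% in adult wild type. At e13.5 it took 0.218% in the knockout and 0.406% in the wild-type library. The makeup of the remainder was reversed between the stages: miR-208a was the next most abundant hairpin in all 4 adult libraries, and miR-208b in both e13.5 libraries. Hairpin rows exceeded the sum of their arms by 0 to 32 counts, so nearly all of the reads lay in the annotated arms.

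The arm miR-499-5p, the strand of miR-499 with the family seed, had 3786 and 7626 CPM in adult knockout and 4873 and 4872 CPM in adult wild-type libraries. At e13.5 it had 2046 CPM in the knockout and 3651 CPM in the wild-type library. The lowest adult library lay just above the higher e13.5 library, and the arm ranked 23 to 44 by count in every library. Adult and e13.5 CPM did not overlap, but the gap between the stages was smaller than the gap between the adult knockout replicates.

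The strand that carries the seed in miR-208a, miR-208a-3p, had 116.1 and 87.1 CPM in adult knockout and 60.5 and 141.3 CPM in adult wild-type libraries. At e13.5 it had 12.4 CPM in the knockout and 61.7 CPM in the wild-type library. On the CPM scale the e13.5 wild-type library lay within the adult range, and only the e13.5 knockout library stood below it. After TMM scaling, which sets libraries to a common centre over most miRNAs, adults ran from 67.1 to 187.0 CPM and the e13.5 knockout and wild-type libraries held 5.70 and 49.7 CPM, without overlap.

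The opposite strand of the same hairpin, miR-208a-5p, had 1365 and 414.4 CPM in adult knockout and 870.5 and 766.2 CPM in adult wild-type libraries. At e13.5 it was close to the floor, with 1 count (0.374 CPM) in the knockout and 20 counts (2.24 CPM) in the wild-type library. Every adult library stood far above both e13.5 libraries.

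The fetal member miR-208b-3p had the opposite order. It had 1.32 and 8.40 CPM in adult knockout, from 19 and 148 counts, and 3.74 and 4.35 CPM in adult wild-type libraries, from 67 and 73 counts. At e13.5 it had 126.1 CPM in the knockout and 346.8 CPM in the wild-type library, from 337 and 3102 counts. The lowest e13.5 value stood well above the highest adult value on either scale.

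The remaining arms were rare. The passenger arm miR-499-3p had 163 and 51 counts in adult knockout, 19 and 213 in adult wild-type, 0 in e13.5 knockout and 14 in e13.5 wild-type libraries, and the stages overlapped in CPM. The arm miR-208b-5p had 0 and 2 counts in adult knockout, 0 in both adult wild-type, 0 in e13.5 knockout and 7 in e13.5 wild-type libraries, so no level was set for it. With these rare arms left out, the order in each adult library was miR-499-5p, miR-208a-5p, miR-208a-3p and miR-208b-3p. At e13.5 it was miR-499-5p, miR-208b-3p, miR-208a-3p and miR-208a-5p. The rare arm miR-499-3p had more counts than miR-208b-3p in adult knockout replicate 1 (163 against 19) and adult wild-type replicate 2 (213 against 73). It had fewer in the other adult libraries. No neighbours in either order overlapped between libraries of the same stage. Sequencing recovers some strands better than others, so an order between strands is one of reads.

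**Figure D1:**
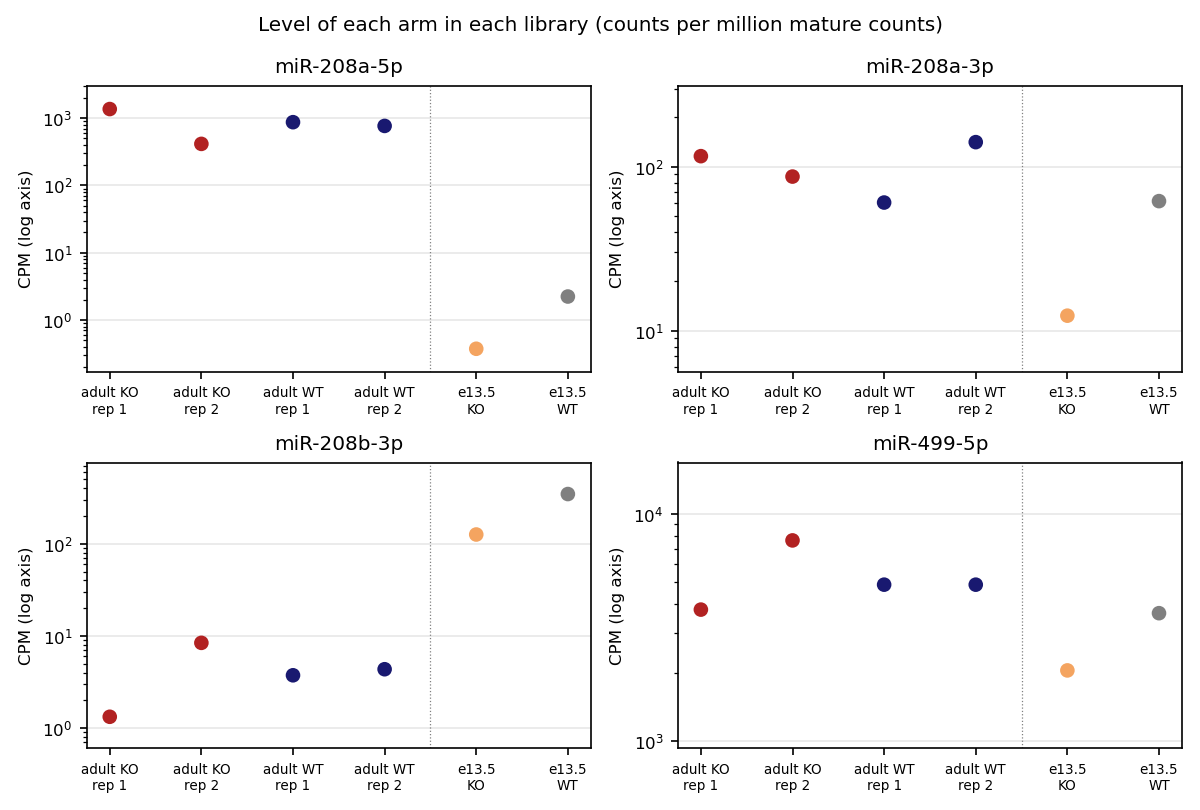
CPM of the 4 most abundant arms in each of the 6 libraries, on log axes; each point is 1 library and the dotted line separates adult from e13.5 libraries. For miR-208b-3p the adult libraries lie at 1.32 to 8.40 CPM, below 126.1 and 346.8 CPM in the e13.5 knockout and wild-type libraries, while miR-208a-5p lies at 414.4 to 1365 CPM in adults and at 0.374 and 2.24 CPM at e13.5.

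The first question of the design was what differs between adult and e13.5 hearts. In edgeR's quasi-likelihood test over all 6 libraries with genotype as a term, 392 of 679 tested miRNAs differed at an adjusted p of 0.05 (Benjamini-Hochberg over all tested miRNAs), which is 57.7% of them. Of these, 193 (28.4%) were higher and 199 (29.3%) lower in adults. Of the family, 5 of 6 arms passed the filter on low counts, 4 were higher in adults and 1 was lower. A stage difference is thus common in this table, and arms that are nearly absent at 1 stage pass the filter only through the other.

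By size the arms were far apart. The arm miR-208a-5p was higher in adults by 10.06 on the log2 scale (SE 1.04, adjusted p = 0.000133), and miR-208b-3p differed by -4.59 (SE 1.003, adjusted p = 0.00461). In the same edgeR test miR-208a-3p was higher by 2.62 (SE 0.91, adjusted p = 0.0344). There miR-499-5p was higher by 1.96 (SE 0.73, adjusted p = 0.0442) and miR-499-3p by 3.97 (SE 1.49, adjusted p = 0.0459). The median over all 679 miRNAs was 0.06.

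The weaker of these calls depended on the scaling. TMM factors ran from 0.5675 in an adult knockout library (replicate 2) to 2.166 in the e13.5 knockout library. With library totals in place of TMM the median of all miRNAs moved to -0.93, and calls split into 120 higher and 263 lower; miR-208a-3p then stood at 1.69 (adjusted p = 0.0758) and miR-499-5p at 0.91 (adjusted p = 0.134). With median-of-ratios factors the median was -0.72 and the split 133 higher and 241 lower, with miR-208a-3p at 1.86 (adjusted p = 0.107) and miR-499-5p at 1.19 (adjusted p = 0.163). Relative to those medians both arms lay on the higher side under each scaling. The call of miR-499-3p was lost in 7 of 14 alternatives: library totals (3.17, adjusted p = 0.0588), median-of-ratios factors (3.24, adjusted p = 0.106), limma-voom (3.91, adjusted p = 0.0943) and the fits without either adult knockout replicate, adult wild-type replicate 2 (2.51, adjusted p = 0.340) or the e13.5 knockout library. With 1 library left out its fold ran from 2.51 to 9.61. Without the e13.5 knockout library miR-208a-3p stood at 1.36 (adjusted p = 0.205) and miR-499-5p at 1.01 (adjusted p = 0.325).

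The calls of miR-208a-5p held in all 15 alternative fits, between 5.58 and 12.46, where 5.58 is the value of the whole miR-208a hairpin. For miR-208b-3p 14 of 15 alternatives kept the call. Without the e13.5 wild-type library it stood at -2.87 (adjusted p = 0.0639). Within wild type alone the stage difference was 9.09 for miR-208a-5p, 1.36 for miR-208a-3p, -5.82 for miR-208b-3p and 1.01 for miR-499-5p. Within knockouts alone it was 12.06, 4.11, -3.33 and 2.72 for the same arms, where the e13.5 side is the shallow library and rests on 1 count of miR-208a-5p. Every one of the 4 arms therefore had the same direction in each genotype.

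**Figure D2:**
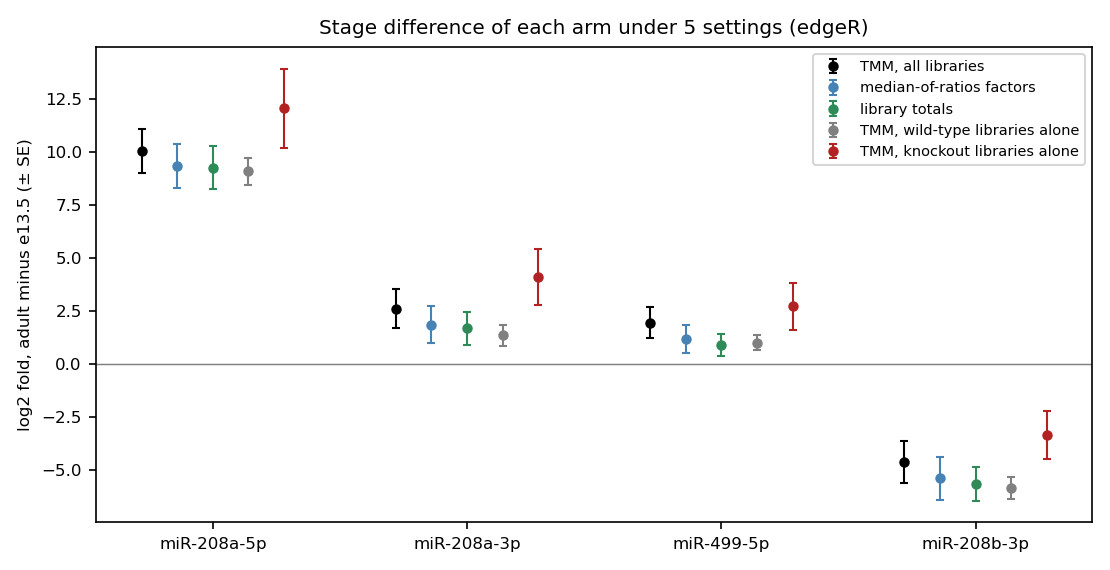
Log2 fold of adult minus e13.5 for the 4 most abundant arms under 5 settings. Points are edgeR estimates and bars are standard errors. The miR-208a-5p estimates lie between 9.09 and 12.06 and the miR-208b-3p estimates between -5.82 and -3.33, while miR-208a-3p and miR-499-5p lie between 0.91 and 4.11.

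Ratios within a library do not depend on the scaling between libraries. Of the reads that carried either 3p arm of miR-208, miR-208b-3p made up 1.13% and 8.80% in adult knockout and 5.82% and 2.98% in adult wild-type libraries. At e13.5 it made up 91.1% (Wilson 95% interval 87.7 to 93.6) in the knockout and 84.9% (83.7 to 86.0) in the wild-type library. All adult libraries lay far below both e13.5 libraries. The ratio of miR-208b-3p to miR-208a-3p was 0.0114 and 0.0965 in adult knockout and 0.0618 and 0.0308 in adult wild-type libraries, against 10.2 and 5.62 in e13.5 knockout and wild type.

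On the log2 scale that ratio averaged -4.70 ± 1.33 in adults (SD, n = 4) and 2.91 ± 0.60 at e13.5 (SD, n = 2), a difference of -7.61, or 195.7-fold. An exact permutation test over libraries gave p = 0.133 (two-sided), which is the smallest that 2 against 4 libraries can give, and 0.343 after adjustment over 18 tests of 9 ratios. The difference exceeded the spread between libraries, but a design of this size cannot pass the threshold. With any 1 library left out it lay between -8.06 and -7.04. As the 3p arms of miR-208a and miR-208b differ at only 3 bases, a few miR-208b-3p reads in adults could belong to the other arm where mismatches were allowed. No source used here gives that allowance, and this was not tested.

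Against miR-499-5p of the same library, miR-208b-3p was lower in adults by a log2 difference of -6.72, with no overlap. For miR-208a-3p against miR-499-5p the difference was 0.89 and the stages overlapped (exact permutation p = 0.4, two-sided). Set against miR-1a-3p, the muscle miRNA of highest mean CPM over the 6 libraries, though below miR-133a-3p in 3 of 4 adult libraries, the differences were 9.09 for miR-208a-5p, -6.16 for miR-208b-3p and 0.56 for miR-499-5p, each without overlap. The sign for miR-499-5p was set by the partner: against the sum of all other muscle miRNAs, a ratio added after the values were seen, it was -0.56 and again without overlap. For miR-208a-3p the differences, also added then, were 1.45 against miR-1a-3p and 0.33 against that sum. In both the stages overlapped (exact permutation p = 0.4 and 0.8, two-sided). Of the 9 planned ratios, 7 did not overlap between adult and e13.5 libraries, each with the same smallest p of the permutation test. They reuse the same arms, so they are not separate results. That of the miR-208b arms rests on 0 to 2 adult counts of the 5p arm and on the 0.5 added to each count. Across the table, 57.7% of tested miRNAs were called by stage. Of 114 hairpins with counts of both arms, 65 had an arm ratio at least 4-fold apart between the stages without overlap.

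The 2 strands of the miR-208a hairpin also changed places. Of the reads of both arms, the 5p arm made up 92.2% and 82.6% in adult knockout and 93.5% and 84.4% in adult wild-type libraries. At e13.5 it made up 2.94% (Wilson 95% interval 0.521 to 14.9) in the knockout, from 34 reads, and 3.497% (2.27 to 5.34) in the wild-type library, from 572 reads. There were thus 4.76 to 14.4 reads of the 5p arm per 3p read in adults, against 0.0303 and 0.0362 in e13.5 knockout and wild type. The log2 difference was 7.64, with the same smallest p of 0.133 from the exact permutation test over libraries.

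Such shifts were frequent across the table. Among 114 hairpins with at least 10 counts over their arms and a count of each arm in every library, 67 (58.8%) had a 5p to 3p ratio that differed at least 4-fold between adult and e13.5 libraries, 24 (21.1%) of them with more of the 5p arm in adults and 43 with less. The shift of miR-208a was the 5th in size of 114, and it was 1 of 18 hairpins whose dominant arm differed between all adult and both e13.5 libraries, 9 in each direction. Others with the adult 5p direction were miR-151, with a shift of 9.72, and miR-195a, with 7.45. The median size of the shift was 2.51. The cause of these shifts was not tested, and the set was chosen after the data were seen, so they are described without a test. Neither other hairpin of the family was in the set, since an arm of each was at 0 in at least 1 library. Where both arms could be counted, miR-208b stayed mainly 3p and miR-499 mainly 5p at both stages.

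**Figure D3:**
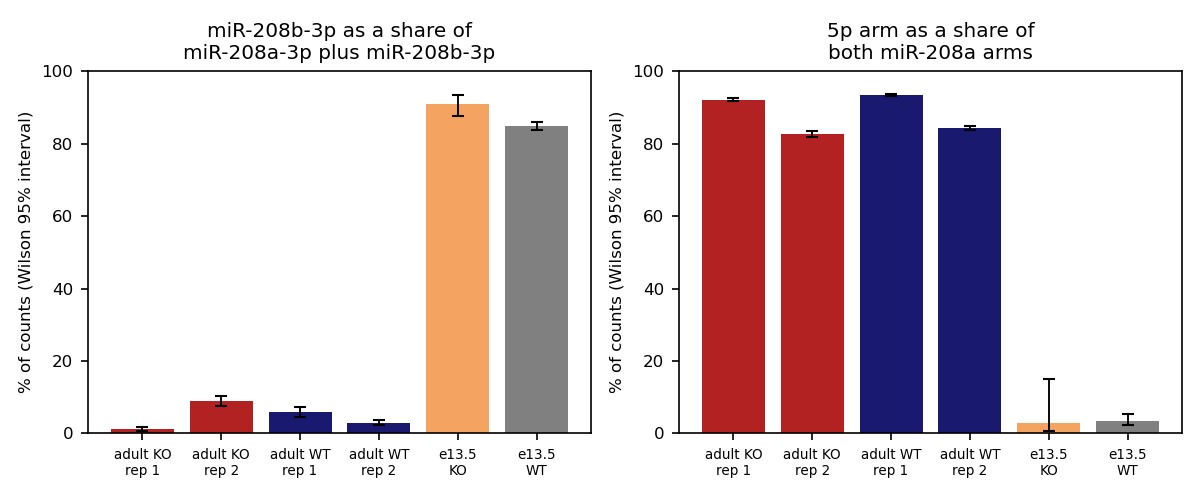
Left, miR-208b-3p as a percentage of the counts of both miR-208 3p arms; right, the 5p arm as a percentage of all miR-208a counts; bars are single libraries with Wilson 95% intervals. On the left adult bars end at 8.80% or lower and e13.5 bars at 84.9% and higher, and on the right the order is turned round, with adults at 82.6% and above.

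**Figure D4:**
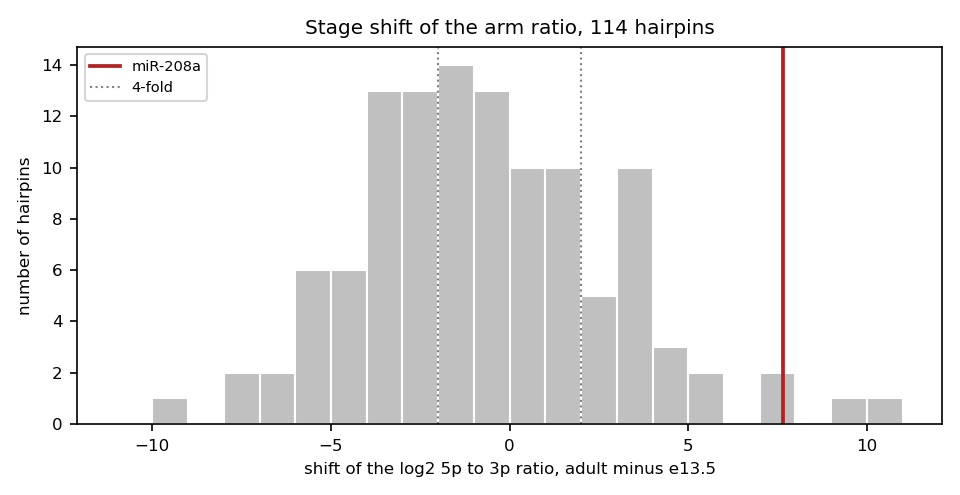
Histogram of the shift of the log2 5p to 3p ratio, adult minus e13.5, over 114 hairpins; dotted lines mark a 4-fold shift and the solid line marks miR-208a at 7.64. Of the hairpins, 67 lie outside the dotted lines, and miR-208a lies in the right tail.

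Because miR-208a-3p and miR-208b-3p have 1 seed in common, their counts were also summed, a step chosen after the values were seen. The sum was 117.4 and 95.5 CPM in adult knockout and 64.2 and 145.6 CPM in adult wild-type libraries, against 138.5 CPM in the knockout and 408.5 CPM in the wild-type library at e13.5. On this scale the e13.5 knockout library lay inside the adult range and the e13.5 wild-type library above it. After TMM scaling the sum was 71.2 to 192.8 CPM in adults, against 63.9 CPM in the e13.5 knockout library, below that range, and 329.0 CPM in e13.5 wild type, above it. Widened to all 3 arms that share bases 2 to 7, the pool was mostly miR-499-5p, which made up 97.0% and 98.8% in adult knockout, 98.7% and 97.1% in adult wild-type, 93.7% in e13.5 knockout and 89.9% in e13.5 wild-type libraries. The stage difference in the ratio of miR-208b-3p to miR-208a-3p thus lay within a minor part of the reads with these 6 bases. By CPM, miR-208a-3p in the e13.5 wild-type library (61.7 CPM) lay within the adult range of 60.5 to 141.3 CPM.

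The replicated genotype question was whether adult knockout and wild-type hearts differ. None of the 5 tested arms passed the threshold in the adult libraries, where 4 of 544 miRNAs (0.735%) did, all lower in knockouts. Knockout minus wild-type log2 folds were 0.19 for miR-208a-5p (SE 0.48), 0.18 for miR-208a-3p (SE 0.57), 0.76 for miR-208b-3p (SE 0.99), 0.61 for miR-499-5p (SE 0.60) and -0.01 for miR-499-3p (SE 1.07). Adjusted p was 0.999 for each in edgeR's quasi-likelihood test. With standard errors of 0.48 to 1.07 on the log2 scale, sizeable differences in either direction were not detectable with these libraries.

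The adult knockout replicates were far apart in several arms. Replicate 1 had 1.32 CPM of miR-208b-3p and 3786 CPM of miR-499-5p, the lowest adult values, and replicate 2 had 8.40 and 7626 CPM, the highest. For miR-208a-5p the order was turned round, with 1365 CPM in replicate 1 and 414.4 CPM in replicate 2. The muscle miRNA miR-1a-3p moved with the first pair, at 81490 CPM in replicate 1 and 256336 CPM in replicate 2, against 145347 and 151055 CPM in wild type. Other abundant muscle arms went the other way. From replicate 1 to replicate 2, miR-133a-3p went from 182883 to 121551 CPM and miR-133b-3p from 11327 to 8621 CPM. For miR-133a-5p the values were 721.3 and 611.6 CPM in the same order. The erythroid list (5 of 5 arms detected) summed to 22276 CPM in knockout replicate 1 and 5651 CPM in replicate 2, against 15709 and 10386 CPM in wild type, and its part in the spread was not tested.

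That spread decided the sign and the calls. Without knockout replicate 1, miR-499-5p stood at 1.24 (adjusted p = 0.00374) and miR-208b-3p at 1.64 (adjusted p = 0.0466), and 35 miRNAs were called. Without knockout replicate 2 the same arms stood at -0.59 (adjusted p = 0.289) and -1.83 (adjusted p = 0.166), and 47 miRNAs were called. Each of these fits has a lone knockout library that is assumed to vary like the wild-type pair. Of the 9 within-library ratios, 1 did not overlap between adult knockout and wild type, that of miR-208b-5p to miR-208b-3p (1.55, exact permutation p = 0.333, two-sided), which rests on 0 to 2 counts of the 5p arm and on the 0.5 added to each count. Among the others, the differences in adults were -0.38 for miR-208b-3p to miR-208a-3p, -0.02 for miR-208a-3p to miR-499-5p and -0.24 for the arm ratio of miR-208a, all 3 with overlap (exact permutation p of 0.667 to 1, two-sided, where 0.333 is the smallest that 2 against 2 can give).

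At e13.5 each genotype had 1 library, so the difference has no replicate check. All 3 leading seed strands had a lower CPM in the knockout library. The ratio of knockout to wild-type CPM was 0.200 for miR-208a-3p (exact 95% counting interval 0.136 to 0.284, from 33 and 552 counts), 0.364 for miR-208b-3p (0.324 to 0.407) and 0.560 for miR-499-5p (0.545 to 0.577). For miR-208a-5p, with 1 and 20 counts, it was 0.167 (0.00404 to 1.05), so no difference was detectable at this depth. The 0 counts of miR-499-3p in the knockout library, against 14 in wild type, allow a ratio of up to 1.01.

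After TMM scaling over those libraries the log2 folds were -2.76 for miR-208a-3p, -1.94 for miR-208b-3p and -1.32 for miR-499-5p, beside a median of -0.11 over 565 miRNAs. A 4-fold or larger difference was seen upward in the knockout library in 59 of the 565 (10.4%) and downward in 38 (6.73%). Of the 3 arms only miR-208a-3p was past that size. The arms miR-208a-5p (-2.13) and miR-499-3p (-2.58) were past it as well, from 1 and 0 counts in the knockout library. By library totals the upward and downward counts were 81 (14.3%) and 26 (4.6%). There miR-208a-3p stood at -2.29, miR-208b-3p at -1.46, miR-499-5p at -0.84, miR-208a-5p at -1.84 and miR-499-3p at -2.47. The muscle miRNA miR-1a-3p had 94848 CPM in the knockout and 139959 CPM in the wild-type library beside them. In the same order miR-133a-3p had 1479 and 1925 CPM, miR-133b-3p 36.3 and 82.8 CPM, and miR-133a-5p 52.8 and 120.4 CPM. Against these, miR-206-3p had 27 counts in the knockout and 22 in the deeper wild-type library, so its CPM was higher in the knockout. The erythroid list summed to 14321 CPM in the knockout and 748.4 CPM in the wild-type library, and the liver miRNA miR-122-5p stood at 191.6 and 45.1 CPM; their part in the difference was not tested. These values compare 2 libraries, not the genotypes.

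Over both stages, with stage as a term, none of the 5 arms passed, beside 5 of 679 miRNAs (0.736%). The log2 folds of knockout minus wild type lay between -0.85 and -0.15, and adjusted p was 0.989 for each in edgeR's test. Whether the genotype difference changes with stage was tested as an interaction, e13.5 minus adult. No miRNA of 769 passed in edgeR (0%), with 46 at an unadjusted p under 0.05, and DESeq2 called 4. The arms had values of -3.40 for miR-208a-5p, -3.22 for miR-208a-3p, -2.97 for miR-208b-3p, -2.20 for miR-499-5p and -6.74 for miR-499-3p, with adjusted p from 0.760 to 0.875. Beside these values, the median was -0.27 over all 769 miRNAs and -1.94 over the 7 tested arms of the other muscle miRNAs. The value of miR-499-3p rests on 0 counts in the e13.5 knockout library. Without adult knockout replicate 1 the test called 87 miRNAs, with miR-208a-3p, miR-208b-3p and miR-499-5p among them (adjusted p = 0.000271, 3.84e-05 and 4.68e-06). Without replicate 2 it called 40, with miR-208a-5p and miR-208a-3p among them (adjusted p = 0.0162 and 0.00446). The e13.5 side is 1 library of each genotype in every such fit.

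The other muscle miRNAs, a list of miR-1, miR-133 and miR-206 arms, give the setting in which the family was read. Of 12 arms 6 were tested by stage, and 5 were higher in adults, 0 lower and 1 not past the threshold, with a median of 4.68 beside 0.06 over all miRNAs. The most abundant were miR-1a-3p, which promotes muscle differentiation, at 1.54 (adjusted p = 0.106, not past), and miR-133a-3p at 7.54, miR-133b-3p at 8.50 and miR-133a-5p at 4.16 (adjusted p = 9.1e-05, 9.8e-05 and 0.00136). Among the tested arms of the family and of this list, miR-208b-3p was the only one called lower in adults. None of 6 differed between adult genotypes.

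A second list held miRNAs in introns of other protein-coding genes, as a background for intronic origin. By stage 19 of its 45 tested arms (50 in the table) were higher in adults, 9 lower and 17 not past the threshold, with a median of 1.33. Over all 679 tested miRNAs 28.4% were higher and 29.3% lower, with a median of 0.06. The largest folds upward were those of miR-151-5p (7.73), hosted by Ptk2, miR-338-3p (7.02), hosted by Aatk, and miR-378a-5p (5.58), hosted by the metabolic coactivator gene Ppargc1b. The largest downward were those of miR-483-5p (-9.52) and miR-483-3p (-6.74), both hosted by the growth factor gene Igf2, and miR-452-5p (-5.78), hosted by Gabre. Arms of 1 hairpin could be called in opposite directions, so a fold of 1 arm is not one of the hairpin or its host. The other arm of miR-151, miR-151-3p, was called lower in adults (-1.95). Likewise miR-342-3p was called higher (2.05) and miR-342-5p lower (-3.13). None of 40 tested arms differed between adult genotypes.

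Profiles most like each leading arm were sought among 332 miRNAs with a mean of at least 10 CPM, by the root mean square difference of centred log2 TMM-scaled CPM over the 6 libraries, which share depth and scaling. For miR-208a-5p they were miR-29a-3p (0.765), miR-133b-3p (0.872), miR-195a-5p (0.953), miR-29c-3p (1.10) and miR-151-5p (1.26). For miR-208b-3p they were miR-450b-5p (0.426), miR-411-5p (0.568), miR-136-3p (0.603), miR-299a-3p (0.699) and miR-16-1-3p (0.771). For miR-499-5p they were miR-126a-5p (0.209), miR-125b-2-3p (0.277), miR-30a-5p (0.299), miR-362-3p (0.300) and miR-1a-3p (0.340). For miR-208a-3p, added after the values were seen, the nearest was miR-130a-3p (0.528). Within the family the nearest pair was miR-208a-3p and miR-499-5p (0.800), and the farthest was miR-208a-5p and miR-208b-3p (7.15).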

How the data were processed

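Total RNA of heart cardiomyocytes was extracted with TRIZOL and made into libraries with a NEXTFLEX small RNA kit, per the labels' protocols. The deposited values are raw, whole-number counts of reads per miRNA in a single table with a column for each of 6 libraries and 0 columns of other samples. Per the submitters' processing notes, mm10 was the genome build. No source used here names the aligner or the counter, or says how mismatches and multiply matching reads were handled. There were 3208 features in the table (1234 hairpins and 1974 mature rows), and 22 mature rows that held the same reads as another were merged, none of them a member.

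Counts were tested with edgeR 4.0.16 in R 4.3.3 (quasi-likelihood, robust off, two-sided, TMM scaling, filterByExpr with a minimum count of 10, Benjamini-Hochberg threshold 0.05). Standard errors are the log2 fold divided by the root of F. Stage is given as adult minus e13.5, the planned contrast with its sign turned. Genotype was tested in the 4 adult libraries, over both stages, and as an interaction. At e13.5 folds used a prior count of 2 and no test. Ratios within a library used counts plus 0.5 and exact permutation tests over libraries. The test was also run on simulated counts. These varied less between libraries than the data did, so that run does not measure the error of the test here. DESeq2 1.42.0 and limma 3.58.1 (voom) served as alternatives, beside other scalings, no filter, unmerged rows, hairpin rows and each library left out.

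The members, the lists and the tests were chosen with earlier results of these data known. Named miRNAs were all arms of the family, the 5 nearest profiles of each leading arm (the arm of higher mean CPM) and the 4 most abundant arms of the muscle list. The 3 largest folds in each direction of the intronic list among those past the stage threshold were named as well. Cell type lists were given as sums, and most of their defining markers were not named singly. Other miRNAs named, among them miR-151 and miR-195a for the arm ratio, were picked after their values were seen.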

Additional observations from a re-analysis of the deposited data

How the results depend on the processing

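All stage directions of the 5 tested arms held under every alternative run. Calls of miR-208a-3p and miR-499-5p were lost under library totals (1.69 and 0.91) and median-of-ratios factors (1.86 and 1.19), and that of miR-499-5p also under DESeq2 (1.19). Leaving out 1 library gave 1.36 to 4.55 for miR-208a-3p, 0.995 to 3.18 for miR-499-5p, -6.10 to -2.87 for miR-208b-3p and 2.51 to 9.61 for miR-499-3p, and 261 to 381 called miRNAs. Without adult wild-type replicate 1 miR-499-5p, and without replicate 2 both miR-208a-3p and miR-499-5p, lost the call, as did miR-208a-3p without either adult knockout replicate. Knockout libraries alone called 231. Scalings set the share of higher calls at 49.2% (TMM), 31.3% (library totals) and 35.6% (median-of-ratios).

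Counts of calls between adult genotypes were 9 without a filter, 0 with limma-voom (12 at an unadjusted p under 0.05) and 5 to 47 with 1 library left out. Leave-one-out folds there ran from -0.38 to 0.52 for miR-208a-5p, -0.40 to 0.97 for miR-208a-3p, -1.83 to 1.64 for miR-208b-3p, -0.59 to 1.24 for miR-499-5p and -0.94 to 2.79 for miR-499-3p. Limma-voom gave -0.12 for miR-208b-3p and 0.98 for miR-499-3p, and library totals 0.052 for miR-499-3p. Over both stages the count was 3 to 5 and the folds -1.08 to 0.088, -1.57 to 0.093, -2.13 to 0.71, -1.17 to 0.55 and -2.06 to 0.19 for the same arms. The interaction called 1 miRNA with library totals, 4 with DESeq2, 2 without a filter and 0 to 87 with 1 library left out.

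At e13.5 miR-208b-3p was -1.46 by library totals and -2.26 with TMM factors over all 6 libraries. The fold of miR-499-5p was -0.84 by totals, -1.26 with median-of-ratios factors, -1.38 from hairpin rows and -1.64 with the factors over all 6. Ratio differences between adult genotypes changed sign with single libraries left out: -1.91 to 1.14 for miR-208b-3p to miR-208a-3p, -0.73 to 0.69 for miR-208a-3p to miR-499-5p, -1.21 to 0.41 for miR-208b-3p to miR-499-5p, -0.94 to 0.46 for the miR-208a arms, -2.27 to 1.28 for the miR-499 arms, and -1.77 to 1.60, -0.72 to 0.26 and -0.14 to 0.50 for miR-208a-5p, miR-208b-3p and miR-499-5p to miR-1a-3p. The causes were not tested.

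No sign of a pairing by the adult replicate numbers was seen: deviations of same-numbered libraries correlated at 0.00728 over 544 miRNAs. With 2 libraries per adult group this is a single correlation, which cannot exclude a pairing. With the numbers as a replicate block, 5 miRNAs were called in place of 4, and miR-499-3p stood at 0.81 (adjusted p = 0.998). Depth limits the e13.5 knockout library most, where miR-208a-5p has 1 count and miR-499-3p 0.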
